A study of Mus musculus with 2 samples.

Results

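The genes described here encode protein subunits of the spliceosome and the SR proteins, and they were measured in mouse morulae after RNA interference against Nat10, an RNA acetyltransferase. The members were every gene of the deposited expression table whose symbol begins with Snrp or U2af, or with Sf3a, Sf3b, Prpf or Srsf followed by a number, together with Lsm2 to Lsm8 and with Eftud2, Ddx46, Ddx23, Snrnp200, Cdc5l, Aqr, Crnkl1 and Bcas2. This rule uses names only and found 62 genes of the 12836 in the table. They were sorted by particle into 9 groups: U1 (5 genes), U2 and the branch point (15), the Sm core (8), U4/U6 (3), the LSm ring (7), U5 (5), B complex and step 2 factors (4), the Prp19 and intron-binding proteins (5), and SR proteins (10).

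The study compared 1 library per group of morulae of the ICR strain. One group had received double-stranded RNA for Nat10 by injection (dsNat10) and the control group double-stranded RNA for GFP (dsGFP), a jellyfish gene that mice lack. The libraries were made by SMART-seq2, which amplifies full-length cDNA, and the design text speaks of 50 morulae without saying whether this is per library. With 1 library per group no difference has a replicate check, no p-value is given, and intervals cover counting error only. In pooled embryos, fewer cells of a type and less RNA per cell cannot be told apart.

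The spliceosome removes introns from pre-mRNA. It is assembled anew on each intron from small nuclear ribonucleoproteins (snRNPs), each a small nuclear RNA with a ring of Sm or LSm proteins and proteins of its own. U1 marks the start of the intron and U2 the branch point, the U4/U6.U5 tri-snRNP then joins, U4 leaves, and the Prp19 complex and several helicases bring the RNA core into its catalytic form. SR proteins bind exons and recruit these particles through domains rich in arginine and serine.

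The rounded counts of all genes in the table summed to 28303119 (dsNat10) and 29139232 (dsGFP) reads. Nat10 (GRCm38 chromosome 2, 103721258 to 103762954) was counted at 37 reads in dsNat10 and 886 in dsGFP, 4.22% of the control level. Of 10 morula markers 9 were in the table and all 9 were detected in both libraries, with summed TPM (the level per transcript length out of 1000000 transcripts) of 17970 and 17160. Dppa5a made up most of both sums (15850 and 14236 TPM), while 7 of the 9 were lower in dsNat10 and 4 of them, Cdx2, Nanog, Tead4 and Krt8, were called lower by the size rule given below. Of all 8738 genes tested by that rule, 49.5% were lower in dsNat10 and 15.3% were called lower. Of 7 cumulus or granulosa cell markers 1 was in the table, at 23.9 and 26.9 TPM. Of 7 blood or fibroblast markers 4 were, with sums of 75.2 and 82.6 TPM and with Col1a1 at 0 in dsNat10. Of 9 oocyte markers 3 were in the table, and their sum was 44.9 TPM in dsNat10 and 6.52 TPM in dsGFP, with H1f8 at 0 in dsGFP and with Gdf9 the other way, at 1 read in dsNat10 and 54 in dsGFP. The part of these lists in the differences below was not tested.

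As a group, the spliceosome genes were abundant and most differed by less than 2-fold between the libraries. TPM summed over the 62 genes to 12800 in dsNat10 and 13270 in dsGFP, a ratio of 0.965. Ddx46, Snrpb2, Sf3a2, Eftud2 and Prpf18 were at least 2-fold lower in dsNat10, and Aqr and Srsf4 at least 2-fold higher. Differences are given as the log2 ratio of CPM (reads per 1000000 reads) plus 1, dsNat10 over dsGFP. A gene was called when it had a mean of 5 CPM or more, a log2 ratio beyond 1 or -1, and an exact 95% counting interval that left out equality. Folds with an interval are ratios of CPM without the added 1. Of the 62 members 59 reached the mean of 5 CPM, and Prpf40b, Ddx23 and Prpf19 did not. Of the 59, 5 were called lower (8.47%) beside 15.3% of all 8738 genes tested, and 2 were called higher (3.39%) beside 15.2%.

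The direction of the whole set was near that of other genes. Of the 59, 33 had a ratio below 0 (55.9%, beside 49.5% of all genes tested), and their median was -0.11 beside 0.01. Over all 62 members without a filter, 36 were below 0 (58.1%, beside 58.0% of all genes in the table), with a median of -0.12 beside -0.14. The median member had a mean of 119.7 CPM and the median tested gene 35.7 CPM, so the counts are also given by abundance. Among genes with 50 CPM or more, 2 of 44 members were called in either direction (4.55%, beside 9.33%), and at 200 CPM or more 0 of 18 were (beside 3.02%). From 20 to under 50 CPM, 3 of 12 members were called in either direction (25%), beside 31.6% of all genes of that range. All 3 were lower, beside 15.4%, and 0 were higher, beside 16.2%. From 5 to under 20 CPM, 1 of 3 members was lower (Sf3a2), beside 27.8% of all genes of that range. Another 1 was higher (Srsf4), beside 26.9%. With a fold limit of 1.5 in place of 2, 10 members were lower and 8 higher, beside 23.8% and 25.1% of all genes.

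**Figure D1:**
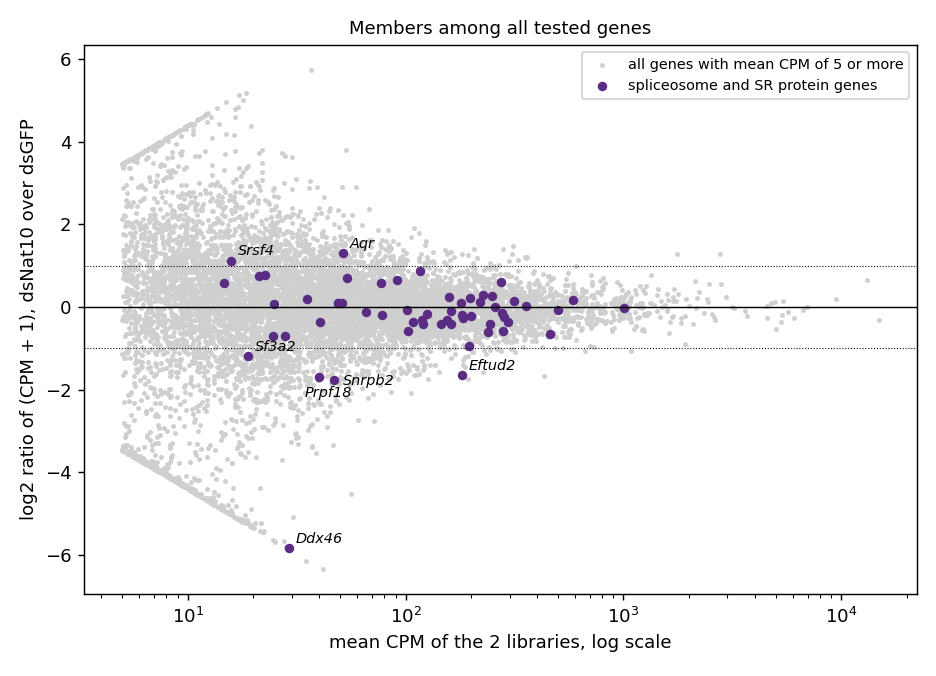
Mean CPM of the 2 libraries (x axis, log scale) against the log2 ratio of CPM plus 1, dsNat10 over dsGFP (y axis), for all 8738 genes tested (grey) and 58 of the members among them (purple). Dotted lines mark ratios of -1 and 1, the 7 members that were called are named, and all genes spread more widely at low abundance.

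**Figure D2:**
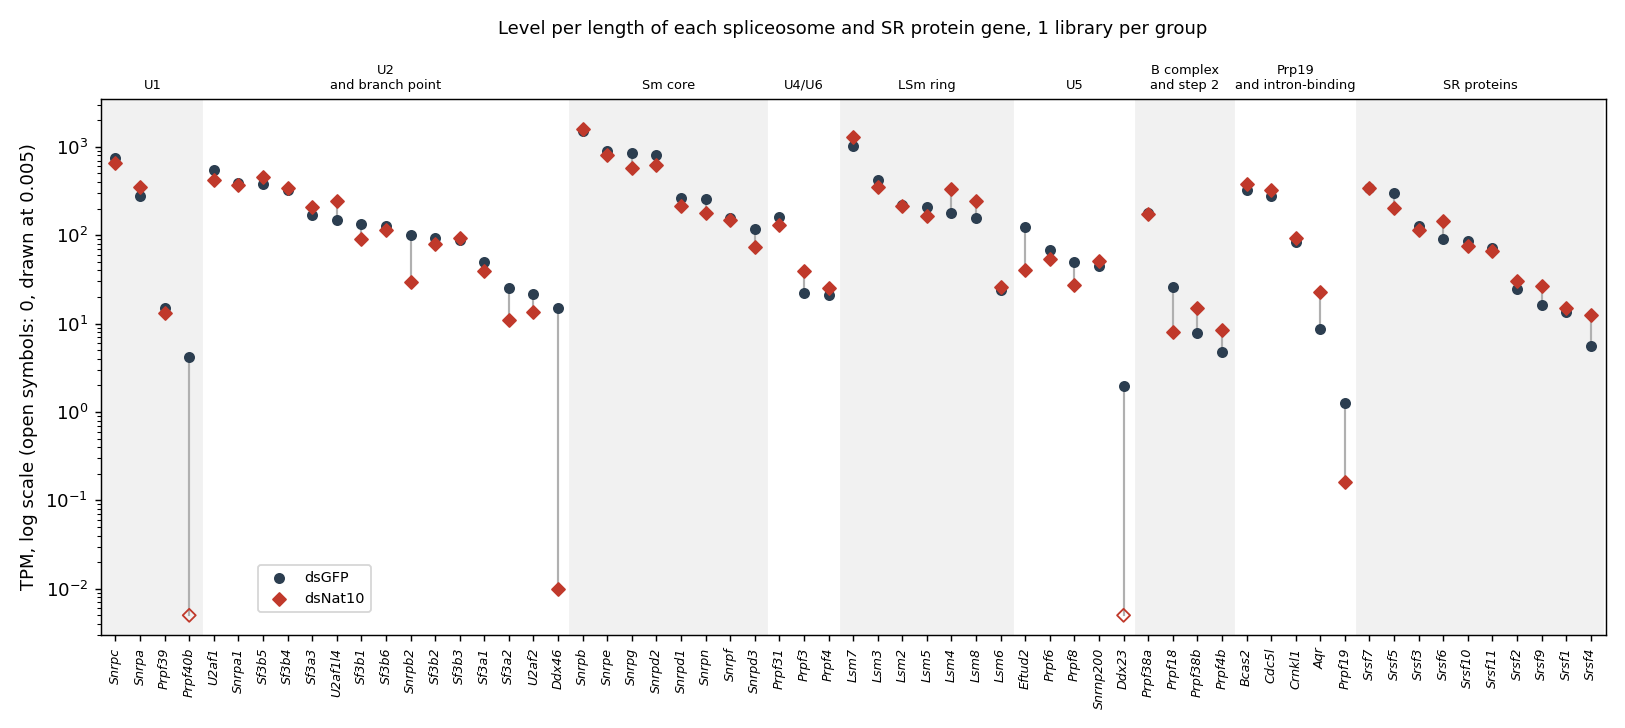
TPM of 61 of the members (y axis, log scale) in the dsGFP library (dark circles) and the dsNat10 library (red diamonds), ordered within each subcomplex by the dsGFP level. Most pairs of symbols lie close together, while Prpf40b, Ddx46, Ddx23 and Prpf19 lie far below their dsGFP level in dsNat10, Prpf40b and Ddx23 at 0 (open symbols, drawn at 0.005).

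The U1 particle recognises the 5′ splice site, and its 2 integral proteins in the set stood on opposite sides of equality by small amounts. Snrpc, the U1C protein that steadies the pairing of U1 RNA with the splice site, was the most abundant at 651 TPM in dsNat10 and 749.9 TPM in dsGFP, and had 7405 and 8917 reads, 1.19-fold lower (1.16 to 1.23). Snrpa, the U1A protein, was at 347 and 278 TPM with 7797 and 6576 reads, 1.2-fold higher (1.16 to 1.24), and its fractional counts make it uncertain. Neither came near the 2-fold limit.

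The U1-associated protein Prpf40b was among the genes at 0 in dsNat10. It (Entrez gene 54614, chromosome 15, 99295076 to 99317018) was counted at 0 reads in dsNat10 and 263 in dsGFP, at least 86.8-fold lower against a floor of 3 reads, and with a mean below 5 CPM it was not tested. Zeros at that depth were common: of all genes with 100 to under 300 reads in dsGFP, 31.0% had 0 in dsNat10, and of genes with as many reads in dsNat10, 8.41% had 0 in dsGFP. Prpf39, another U1-associated protein with fractional counts, had 733 and 699 reads, 1.06-fold higher (0.954 to 1.18), an interval that includes equality, and its TPM stood the other way, at 13.1 and 14.9 TPM.

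The U2 particle and the factors that guide it to the branch point held 3 of the 5 lower calls and was the largest of the 9 groups. These 3 of 15 genes stand beside 15.3% of all genes tested. Of its 15 genes, all of which passed the filter, 10 had a ratio below 0 and the median was -0.27. The summed level was 2516 TPM in dsNat10 and 2609 TPM in dsGFP. Ddx46, the counterpart of yeast Prp5, is an ATPase that acts when U2 pairs with the branch point. It (Entrez gene 212880, chromosome 13, 55634975 to 55681267) was counted at 1 read in dsNat10 and 1680 in dsGFP, a log2 ratio of -5.84 and a ratio of CPM of 1663 with an interval of 298 to 65720. Its level was 0.01 TPM in dsNat10 and 14.9 TPM in dsGFP. Few genes of that depth were so low: of 2349 genes with 1000 to under 3000 reads in dsGFP, 30 had 3 or fewer in dsNat10 (1.28%), and in the other direction 1 of 2402 did (0.0416%).

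Snrpb2, the U2-B″ protein that binds a stem loop of U2 RNA together with U2-A′, was also called lower. It (Entrez gene 20639, chromosome 2, 143063069 to 143072052) was counted at 595 reads in dsNat10 and 2112 in dsGFP, 3.51-fold lower (3.21 to 3.85). Its partner U2-A′, encoded by Snrpa1, had 7582 and 8425 reads, 1.1-fold lower (1.07 to 1.14). The log2 ratios of the partners were -1.76 and -0.14.

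Sf3a2, a subunit of the SF3a trimer of U2, was the third. It (Entrez gene 20222, chromosome 10, 80798735 to 80804922) was counted at 319 reads in dsNat10 and 769 in dsGFP, 2.39-fold lower (2.09 to 2.73). The call was lost with a pseudocount of 5 CPM, where the log2 ratio was -0.97. With a mean of 18.9 CPM, Sf3a2 also fell below the alternative filter of 20 CPM. In its range, 5 to under 20 CPM, 27.8% of all genes were lower. In the GENCODE annotation, 16.1% of its exon bases overlap other genes, here Plekhj1 on the opposite strand, which had a log2 ratio of 0.20, and without strand the reads of the shared part cannot be told apart. The other SF3a subunits lay on either side of equality, Sf3a1 with 3568 and 4798 reads, 1.33-fold lower (1.27 to 1.39) and Sf3a3 with 6099 and 5268 reads, 1.17-fold higher (1.13 to 1.21).

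For these 3 lower genes of the U2 group, and for Aqr, the member with the highest ratio, the 250 bases before the start of transcription are shown so that the sequence can be read beside the values. They come from the RefSeq promoter table of GRCm38.p6, on the gene's own strand, 5′ to 3′. Capitals mark matches on either strand to 7 motifs, namely the GC box GGGCGG, the ETS motif CCGGAAG, the CCAAT box, the E-box CACGTG, the TATA box TATAAA, the YY1 motif AAGATGGC and the palindromic NRF1 motif, and no marked matches overlap. The windows are chr13:55634749-55634998 (plus strand) for Ddx46, chr2:143062819-143063068 (plus) for Snrpb2, chr10:80798485-80798734 (plus) for Sf3a2 and chr2:114175340-114175589 (minus) for Aqr.
Ddx46: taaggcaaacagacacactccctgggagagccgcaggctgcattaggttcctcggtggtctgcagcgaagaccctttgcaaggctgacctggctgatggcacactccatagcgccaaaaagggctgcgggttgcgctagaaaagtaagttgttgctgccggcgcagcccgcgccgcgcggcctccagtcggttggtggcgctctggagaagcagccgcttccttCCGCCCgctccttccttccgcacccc
Snrpb2: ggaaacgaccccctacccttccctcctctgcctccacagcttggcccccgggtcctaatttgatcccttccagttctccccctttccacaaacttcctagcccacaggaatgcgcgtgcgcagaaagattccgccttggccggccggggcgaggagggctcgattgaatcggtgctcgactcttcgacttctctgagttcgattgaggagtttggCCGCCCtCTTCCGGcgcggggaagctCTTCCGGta
Sf3a2: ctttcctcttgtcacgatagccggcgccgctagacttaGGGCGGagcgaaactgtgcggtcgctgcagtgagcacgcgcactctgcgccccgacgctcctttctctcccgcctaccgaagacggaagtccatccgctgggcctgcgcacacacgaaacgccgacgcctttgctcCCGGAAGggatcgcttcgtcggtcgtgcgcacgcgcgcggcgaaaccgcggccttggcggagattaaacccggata
Aqr: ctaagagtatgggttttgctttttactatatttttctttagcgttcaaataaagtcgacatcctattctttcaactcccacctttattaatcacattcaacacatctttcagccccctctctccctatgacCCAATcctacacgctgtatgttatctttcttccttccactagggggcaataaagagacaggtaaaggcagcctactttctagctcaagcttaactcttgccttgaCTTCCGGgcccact
The windows of Ddx46, Snrpb2 and Sf3a2 each hold 1 GC box, and hold 19, 19 and 37 CG dinucleotides. The Aqr window has 4 CG dinucleotides, 42.0% G and C, a CCAAT match and an ETS match 14 bases before the start. Snrpb2 has 2 ETS matches, Sf3a2 has 1 and Ddx46 has 0. Across the promoter table, 52 members matched with 66 windows of 300 bases (250 before and 50 after a start). The ETS letters were in 24 of these 66 (36.4%) and in 8.86% of all 32851 windows, and the GC box in 60.6% and 35.7%. CCAAT was in 39.4% of member windows and 37.4% of all, the E-box in 10.6% and 7.15%, the TATA box in 7.58% and 13.6%, the YY1 letters in 6.06% and 2.75%, and the NRF1 letters in 1.52% and 0.971%. Member windows held a median of 24 CG dinucleotides and all windows 7. The full table covers 27025 genes and was matched to the members neither in CG content nor in expression. Whether the motif shares differ beyond this was not tested. A match describes the letters only.

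The SF3b complex, which holds the branch point adenosine, lay closer to equality. Sf3b1, its large scaffold, had 10214 reads in dsNat10 and 16173 in dsGFP, 1.57-fold lower (1.53 to 1.61). Sf3b2 had 4721 and 5775 reads, 1.21-fold lower (1.17 to 1.26), and Sf3b6, which contacts the branch point, had 2086 and 2395 reads, 1.14-fold lower (1.07 to 1.21). The intervals of Sf3b3, with 7348 and 7366 reads, 1.01-fold higher (0.976 to 1.04), and of Sf3b4, with 10252 and 10211 reads, 1.01-fold higher (0.987 to 1.04), included equality. Sf3b5, a small subunit and the most abundant gene of the U2 group in dsNat10, was at 461 and 377 TPM with 4904 and 4198 reads, 1.18-fold higher (1.13 to 1.23).

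U2AF recognises the polypyrimidine tract and the 3′ splice site ahead of U2. Its large subunit U2af2 had 531 and 892 reads, 1.66-fold lower (1.49 to 1.85). The small subunit U2af1, the most abundant gene of the U2 group in dsGFP at 424 and 550 TPM, had 5994 and 8090 reads, 1.34-fold lower (1.29 to 1.38). U2af1l4, a paralogue of the small subunit, had the highest ratio of the U2 group, with 3202 and 2038 reads, 1.59-fold higher (1.5 to 1.68). In the GENCODE annotation 66.1% of the exon bases of U2af1l4 overlap other genes, among them Psenen on the opposite strand, which had 1797 reads in dsNat10 and 2417 in dsGFP.

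The Sm core is the ring of proteins that closes around the RNA of U1, U2, U4 and U5. All 8 genes of this group, the neuronal paralogue Snrpn included, had log2 ratios from -0.69 to -0.01, except that the most abundant one, Snrpb, was above 0 with plain totals, in TPM and in FPKM (0.02, 0.05 and 0.01). The median was -0.39 and no gene of the group was called. Summed over the group, 4207 TPM in dsNat10 stood beside 4878 TPM in dsGFP, a ratio of 0.862.

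Snrpd3 had the lowest ratio of the ring and Snrpb the one nearest to 0. Snrpd3, which encodes SmD3, had 604 reads in dsNat10 and 1005 in dsGFP, 1.65-fold lower (1.49 to 1.82), and was also the least abundant, at 74.4 and 118 TPM. Snrpg (SmG) was at 579 and 845 TPM with 2336 and 3548 reads, 1.5-fold lower (1.43 to 1.58). Snrpd2 (SmD2) had 3971 and 5368 reads, 1.34-fold lower (1.28 to 1.39), and Snrpd1 (SmD1) had 2686 and 3511 reads, 1.29-fold lower (1.23 to 1.36). These 4 genes were each at least 1.29-fold lower. Snrpe (SmE) had 4834 and 5565 reads, 1.14-fold lower (1.1 to 1.18), and Snrpf (SmF), with fractional counts and with 85.4% of its exon bases shared with other genes, had 1818 and 1986 reads, 1.08-fold lower (1.01 to 1.15). Snrpb, which encodes SmB, had 28590 and 29097 reads, 1.01-fold lower (0.991 to 1.02), at 1575 and 1527 TPM. Levels per length within the group ran from 74.4 to 1575 TPM in dsNat10 and from 118 to 1527 TPM in dsGFP. Snrpn had 6422 and 9641 reads, 1.49-fold lower (1.44 to 1.53), but it shares its transcript with Snurf, and both are given 6421.5 estimated reads in dsNat10, so its count is uncertain.

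The U4/U6 proteins did not share a direction. Prpf31, which binds U4 RNA and links U4/U6 to U5, was the most abundant, at 129 TPM in dsNat10 and 159 TPM in dsGFP, and had 7402 and 9600 reads, 1.28-fold lower (1.25 to 1.32). Prpf3, which pairs with Prpf4 on U4/U6, had 1922 and 1176 reads, 1.65-fold higher (1.53 to 1.78). Prpf4 itself had 1456 and 1373 reads, 1.07-fold higher (0.995 to 1.15), an interval that includes equality. The summed level was 194 TPM in dsNat10 and 202 TPM in dsGFP.

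The LSm ring binds the tail of U6 RNA and resembles the Sm ring, and its genes stood on both sides of equality. Lsm4 had the highest ratio, with 4318 reads in dsNat10 and 2380 in dsGFP, 1.83-fold higher (1.74 to 1.93). Lsm8, the subunit that sets the nuclear ring apart from the cytoplasmic one, had 2657 and 1787 reads, 1.5-fold higher (1.41 to 1.6), and the most abundant, Lsm7, was at 1282 and 1027 TPM with 7125 and 5892 reads, 1.22-fold higher (1.18 to 1.26). Lower were Lsm5 with 1012 and 1320 reads, 1.29-fold lower (1.19 to 1.4), Lsm3 with 3017 and 3808 reads, 1.25-fold lower (1.19 to 1.31) and Lsm2 with 2828 and 3017 reads, 1.06-fold lower (1.003 to 1.11). Lsm6, with fractional counts, had 1450 and 1356 reads, 1.08-fold higher (1.003 to 1.16). Summed TPM was 2616 in dsNat10 and 2229 in dsGFP, a ratio of 1.17, where the Sm core had 0.862, and this difference between the rings was not tested. None of the 7 was called, and the median was 0.11.

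**Figure D3:**
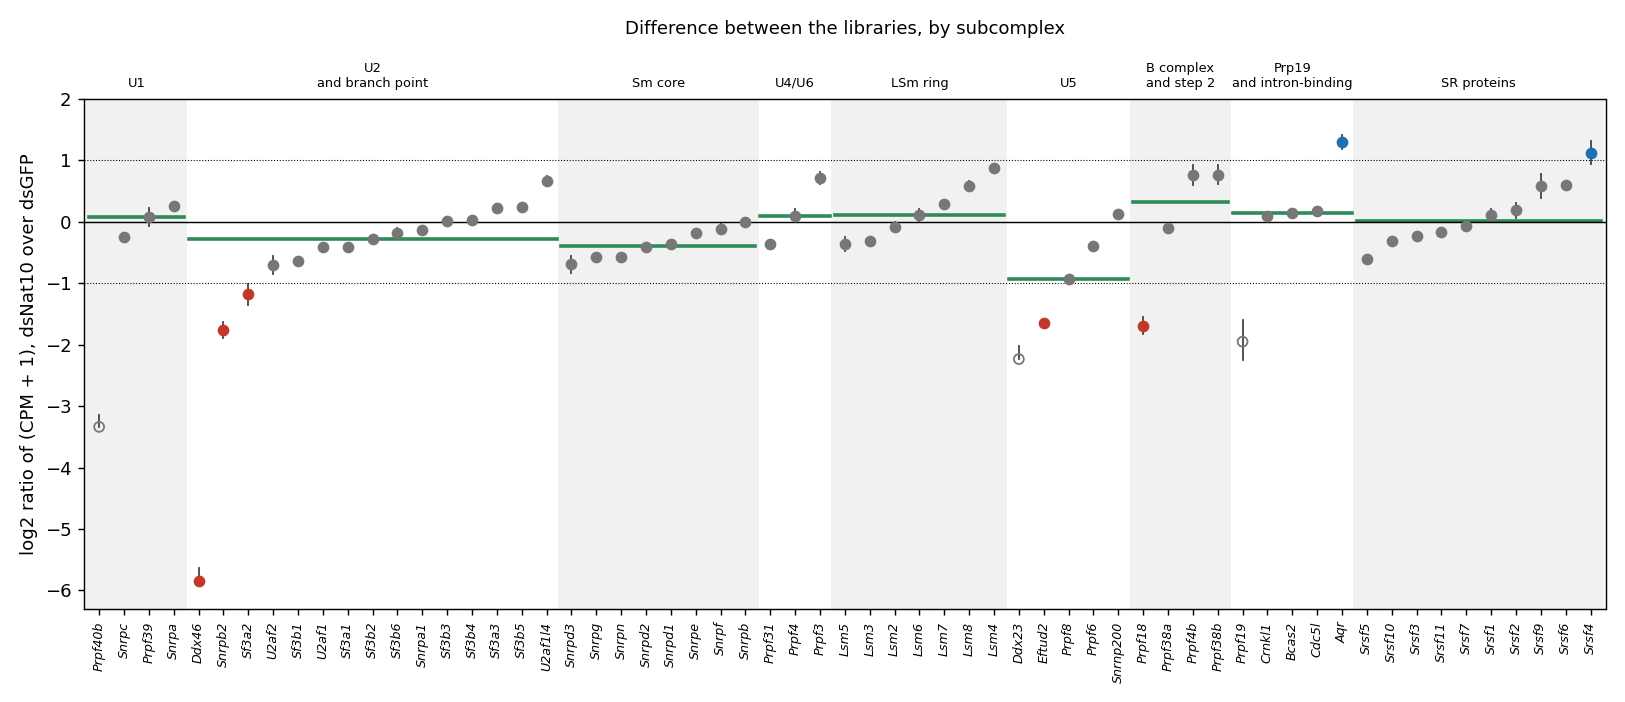
Log2 ratio of CPM plus 1, dsNat10 over dsGFP (y axis), for 61 of the members by subcomplex, with red and blue points called lower and higher, grey points tested and not called, open points below a mean of 5 CPM, vertical lines for exact 95% counting intervals, green bars for medians over all genes of a group, and dotted lines at -1 and 1. The Sm core lies at or below 0, U5 has the lowest median (-0.94) and the LSm ring spans -0.36 to 0.87.

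The U5 particle carries the proteins that hold and remodel the catalytic centre, and its summed level had the lowest ratio of the 9 groups. The sum was 173 TPM in dsNat10 and 289 TPM in dsGFP, a ratio of 0.598, and most of this difference came from the 1 gene Eftud2. Of its 5 genes 4 had a ratio below 0, beside 58.0% of all genes without a filter. Of the 4 tested 3 did, beside 49.5%. Eftud2 is the GTPase known in yeast as Snu114. It (Entrez gene 20624, chromosome 11, 102838472 to 102880984) was counted at 2487 reads in dsNat10 and 7928 in dsGFP, 3.15-fold lower (3.02 to 3.3), and its level was 40.9 and 124 TPM, the highest of the group in dsGFP. It was the 1 member called lower among the 44 with 50 CPM or more, where 4.62% of all genes were. The gene model Gm26668 on the opposite strand overlaps it, at 26.9% of its exon bases, and reads from either strand would count alike.

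Prpf8, the large scaffold around the catalytic RNA, fell just short of the rule. It had 3820 reads in dsNat10 and 7412 in dsGFP, 1.92-fold lower (1.85 to 2.0), a log2 ratio of -0.94. Prpf6, which bridges U5 with U4/U6 and was the most abundant of the group in dsNat10 at 53.4 and 67.9 TPM, had 2968 and 3967 reads, 1.32-fold lower (1.26 to 1.39). Snrnp200, the Brr2 helicase that unwinds U4 from U6, had 6530 and 6067 reads, 1.09-fold higher (1.05 to 1.13). Ddx23, the helicase that displaces U1 (Entrez gene 74351, chromosome 15, 98645379 to 98662928), was counted at 0 reads in dsNat10 and 107 in dsGFP, at least 35.3-fold lower against the floor of 3 reads. It was below the filter, at a depth where 31.0% of genes had 0 in dsNat10.

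Of the 4 factors of the B complex and of the second step, Prpf18 was called lower. Prpf18, a factor of the second step (Entrez gene 67229, chromosome 2, 4622058 to 4652135), was counted at 524 reads in dsNat10 and 1776 in dsGFP, 3.35-fold lower (3.04 to 3.71), and its fractional counts make the value uncertain. Prpf38a, a B complex protein and the most abundant of the 4 at 173 and 179 TPM, had 4466 and 4861 reads, 1.08-fold lower (1.03 to 1.12). Its relative Prpf38b had 819 and 475 reads, 1.74-fold higher (1.55 to 1.96). Prpf4b, a kinase of tri-snRNP proteins with fractional counts, had 771 and 448 reads, 1.74-fold higher (1.55 to 1.96). The group thus held 2 genes on either side of 0, with a summed level of 204 TPM in dsNat10 and 217 TPM in dsGFP.

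The Prp19 complex, which stabilises the activated spliceosome, was grouped with Aqr, the gene with the highest ratio of the whole set. Aqr, a helicase that binds the intron upstream of the branch point (Entrez gene 11834, chromosome 2, 114101161 to 114175339), was counted at 2103 reads in dsNat10 and 844 in dsGFP, 2.52-fold higher (2.32 to 2.73), with a level of 23.1 and 8.79 TPM. Its log2 ratio of 1.30 passed the rule under every scaling, unit, pseudocount and filter tried. Cdc5l, a core protein with Myb repeats, had 17702 and 15871 reads, 1.13-fold higher (1.1 to 1.15). Bcas2, the most abundant of the group at 377 and 329 TPM, had 9425 and 8647 reads, 1.1-fold higher (1.07 to 1.13) with fractional counts, and Crnkl1 had 5308 and 5010 reads, 1.07-fold higher (1.03 to 1.11). The 5 genes summed to 819 TPM in dsNat10 and 701 TPM in dsGFP.

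Prpf19 itself, the ubiquitin ligase that names the complex, had few reads in both libraries (Entrez gene 28000, chromosome 19, 10895231 to 10909559). It had 18 reads in dsNat10 and 153 in dsGFP, 8.41-fold lower (5.15 to 14.6), and at 0.16 and 1.26 TPM it was below the filter. The other 4 genes of the group were at 8.79 TPM or more in both libraries. Its count and FPKM imply a length of 5782 bases in dsNat10 and 5967 in dsGFP. At 0.11 and 0.88 FPKM, given to 2 decimals, these lengths are imprecise. Its longest coding transcript in GENCODE has 6035 bases, and the sources used here do not say what the authors' gene model covers.

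**Figure D4:**
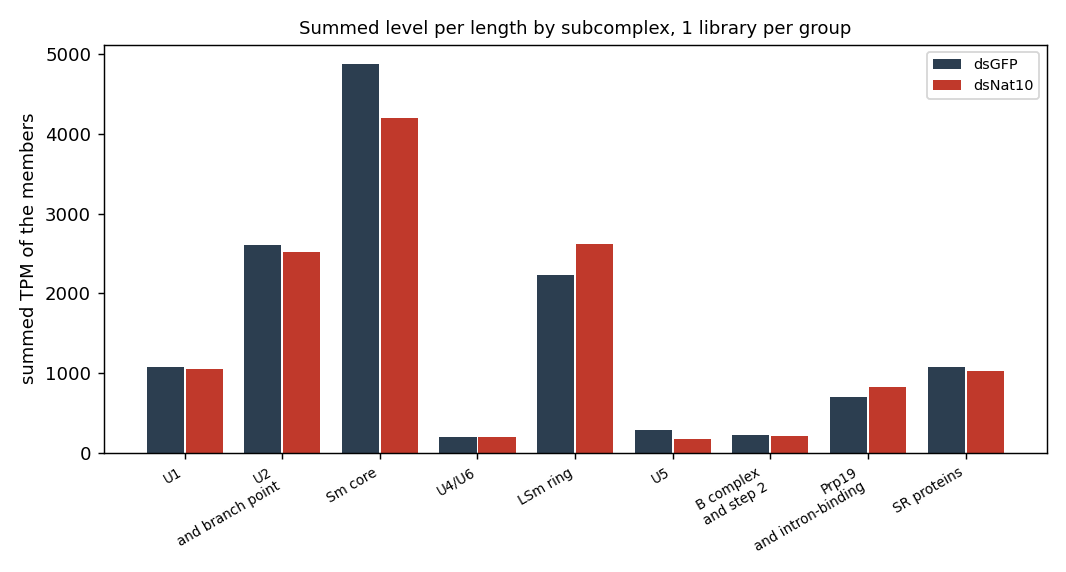
Summed TPM (y axis, from 0) of the members of each subcomplex in the dsGFP library (dark bars) and the dsNat10 library (red bars). The Sm core stands at 4878 TPM in dsGFP and 4207 TPM in dsNat10 and U5 at 289 and 173 TPM, while the LSm ring stands at 2229 and 2616 TPM and the Prp19 and intron-binding group at 701 and 819 TPM.

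The SR proteins, which help to select exons, had no common direction. Of 10 genes 5 were below 0, the median was 0.02, and the summed level was 1029 TPM in dsNat10 and 1077 TPM in dsGFP. Srsf4 (Entrez gene 57317, chromosome 4, 131873530 to 131901725) was called higher, with 631 reads in dsNat10 and 277 in dsGFP, 2.3-fold higher (2.0 to 2.66). Its mean of 15.8 CPM lay in the range of 5 to under 20 CPM, where 26.9% of all genes were higher. Its log2 ratio of 1.12 became 0.98 in FPKM and 0.89 with a pseudocount of 5 CPM, both short of the limit. The FPKM ratio had 1 added to both values, and without it the levels, 8.63 and 3.9 FPKM, differed by more than 2-fold. In the GENCODE annotation 43.0% of its exon bases overlap the gene model Gm12992 on the opposite strand.

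Srsf5 and Srsf6, which share with Srsf4 the build of 2 RNA recognition motifs and a long arginine and serine domain, stood on opposite sides. Srsf6 had 9431 reads in dsNat10 and 6273 in dsGFP, 1.52-fold higher (1.47 to 1.57). Srsf5 had 5398 and 8343 reads, 1.53-fold lower (1.48 to 1.58), the lowest ratio among the SR proteins. Srsf4 and Srsf5 thus marked the upper and lower ends of the group.

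Srsf3 and Srsf7, which also act in mRNA export, lay nearer to equality. Srsf7, the most abundant SR gene at 339 and 341 TPM, had 13927 and 14773 reads, 1.05-fold lower (1.03 to 1.07). Srsf3 had 5280 and 6249 reads, 1.17-fold lower (1.13 to 1.22). Srsf1, the founding member, had 1516 and 1419 reads, 1.08-fold higher (1.003 to 1.16), and its relative Srsf9, with fractional counts, had 510 and 335 reads, 1.54-fold higher (1.34 to 1.77). Srsf2, with 25.3% of its exon bases shared with other genes, had 1076 and 954 reads, 1.14-fold higher (1.04 to 1.25). Srsf10 had 3962 and 4957 reads, 1.24-fold lower (1.19 to 1.29), and Srsf11 had 3366 and 3836 reads, 1.13-fold lower (1.08 to 1.18).

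The division of reads between related genes is described for 5 pairs that were chosen after their values were seen, so the shares and their counting intervals test nothing. U2af1l4 took 34.8% of the reads of U2af1 and U2af1l4 in dsNat10 (exact 95% interval 33.8% to 35.8%) and 20.1% in dsGFP (19.3% to 20.9%). The overlap of U2af1l4 with Gm49396 limits this share as well. Prpf38b took 15.5% of the reads of Prpf38a and Prpf38b in dsNat10 (14.5% to 16.5%) and 8.90% in dsGFP (8.15% to 9.70%). The less abundant gene of both pairs thus had the larger share in dsNat10.

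Among SR proteins the shares differed by fewer percentage points than in the pairs above. Srsf9 took 25.2% of the reads of Srsf1 and Srsf9 in dsNat10 (23.3% to 27.1%) and 19.1% in dsGFP (17.3% to 21%). Srsf4 took 6.27% of those of Srsf4 and Srsf6 in dsNat10 (5.81% to 6.76%) and 4.23% in dsGFP (3.75% to 4.74%). Srsf7 took 72.5% of those of Srsf3 and Srsf7 in dsNat10 (71.9% to 73.1%) and 70.3% in dsGFP (69.7% to 70.9%).

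**Figure D5:**
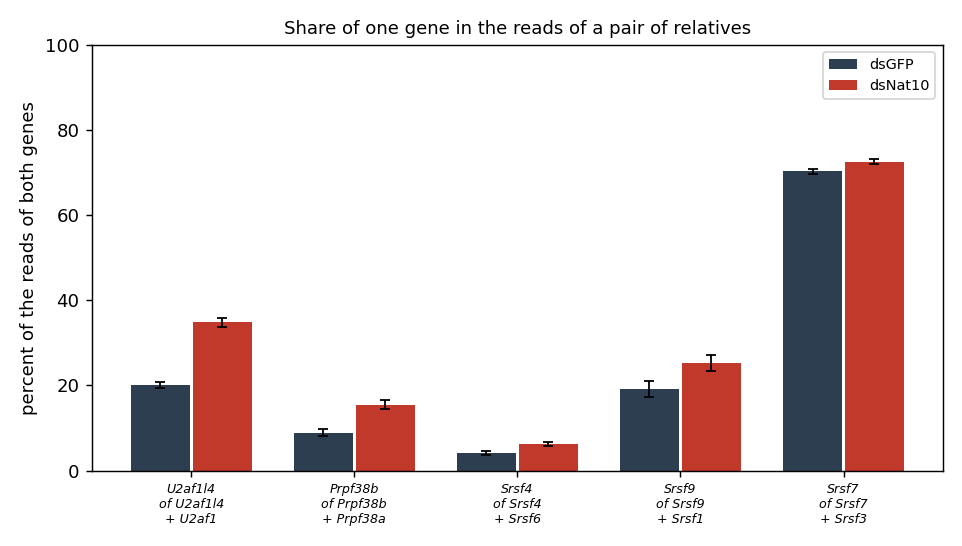
Share of 1 gene in the reads of a pair of relatives (y axis, percent, from 0 to 100) in the dsGFP library (dark bars) and the dsNat10 library (red bars), with exact 95% binomial intervals. U2af1l4 stands at 20.1% in dsGFP and 34.8% in dsNat10 and Prpf38b at 8.90% and 15.5%.

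Other splicing genes were counted in 6 lists that hold no member, 108 of whose 109 genes in the table passed the filter. Of these 108, 11 were called lower and 5 higher, beside 15.3% and 15.2% of all genes tested, and the median was -0.12. Among 21 further proteins of the major particles, 15 were below 0 with a median of -0.34, and 3 were called lower. Htatsf1, a cofactor of U2, had 0 reads in dsNat10 and 931 in dsGFP (at least 307-fold lower). Of genes with 100 to under 300 reads in dsGFP 31.0% had 0 in dsNat10, and with 1000 to under 3000 reads 0.553%. The share at the depths between was not counted. Luc7l3, a U1-associated protein, had 256 and 941 reads, 3.64-fold lower (3.17 to 4.19), and Sf1, which binds the branch point before U2, had 1555 and 3230 reads, 2.06-fold lower (1.94 to 2.19).

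The minor spliceosome, which removes a rare class of introns, had 3 of 13 genes lower and 1 higher, with a median of -0.14. These counts, and those of the next list, stand beside 15.3% of all genes tested that were lower and 15.2% that were higher. Snrnp35 had 0 and 463 reads (at least 153-fold lower) and Zrsr1 1 and 307 reads, both with fractional estimates. How often all genes of their depth were so low in dsNat10 was not counted. Snrnp48 had 490 and 48 reads, 10.3-fold higher (7.66 to 14.2). In the list for activation and catalysis 3 of 32 were lower and 2 higher, with a median of -0.13. Cdc40, a step 2 factor, had 1 read in dsNat10 and 1034 in dsGFP, the step 2 helicase Dhx38 had 154 and 2095 reads, 13.5-fold lower (11.4 to 16), and Dhx35 had 1474 and 599 reads, 2.49-fold higher (2.26 to 2.74).

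Kinases that phosphorylate SR proteins went both ways, with 2 of 7 lower and 2 higher, beside 15.3% and 15.2% of all genes tested, and a median of -0.32. So few genes allow no statement about the list. Clk4 had 0 reads in dsNat10 and 549 in dsGFP (at least 181-fold lower), at a depth where the share of genes at 0 was not counted. Clk3 had 2774 and 5862 reads, 2.09-fold lower (2.0 to 2.19), and Srpk2, with fractional counts, had 1262 and 605 reads, 2.11-fold higher (1.91 to 2.33). In the lists for the exon junction complex with SR-related proteins and for snRNP assembly, 0 of 17 and 0 of 18 genes were called in either direction, with medians of 0.04 and 0.12. Whether the lists differ from each other was not tested.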

How the data were processed

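RNA was measured in 1 dsNat10 and 1 dsGFP library. Per the submitters' processing notes the tools were Trim Galore, HISAT and HTSeq, with the genome GRCm38, and the sources used here state no versions, annotation or counting options. The deposited estimated counts are raw. In 23.2% of genes they are fractional, which is treated as uncertain because reads may be divided with a similar or overlapping gene. The authors also deposited FPKM, per length and library total, and TPM, which sums to 1000000. SMART-seq2 keeps no strand information, so a read from a gene and one from its antisense partner look alike.

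Estimated counts were rounded and turned into CPM with TMM scaling (edgeR 4.0.16, R 4.3.3), which moved log2 ratios by -0.03 against plain totals. Ratio and share intervals are exact (Clopper-Pearson, 95%, scipy 1.17.1). The floor for a gene at 0 is 3 reads per library. Reads copied by PCR and lacking molecular identifiers are not separate molecules, so intervals and floors cover counting error only. The size rule was tested on simulated counts that held counting error only, so that test does not cover variation between embryos or in amplification. Coordinates and identifiers are RefSeq's for GRCm38.p6, to which all 62 members matched, promoters are from the same build with 52 members matched, and exon overlaps come from GENCODE. The alternatives were plain totals, DESeq2 1.42.0 size factors, TPM, FPKM, a pseudocount of 5 CPM, other filters, a fold limit of 1.5 and leaving out fractional genes. Log2 ratios in TPM and in FPKM were also taken with 1 added to both values.

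Members, subcomplexes and lists were chosen with earlier results of these data known. Named with identifiers were members past the rule or at 0 in 1 library, and Prpf19, which was added after its values were seen. In each subcomplex the most abundant member and the one with the ratio largest in size were named, with up to 3 called genes of each further list, largest first. The remaining members are given too, except 1 that counts toward the totals and is not reported here.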

Additional observations from a re-analysis of the deposited data

How the results depend on the processing

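The number of members called higher was 2 as reported and 8 with a fold limit of 1.5. It was 1 in FPKM with 1 added, with a pseudocount of 5 CPM, and with a mean of at least 20 or at least 50 CPM. The number called lower, 5 as reported, was 8 without a filter, 1 at 50 CPM or more and 10 with a fold limit of 1.5, where 23.8% of all genes were lower and 25.1% higher. Among tested genes below 0, U1 had 1 and had 2 in TPM, in FPKM and without a filter. The U2 group had 10 and had 6 of 11 at 50 CPM or more. The B complex and step 2 group had 2 and had 1 at 50 CPM or more and 1 with fractional genes left out, and the Prp19 and intron-binding group had 0 and had 1 without a filter. The median of the B complex and step 2 group, 0.33, was -0.11 at 50 CPM or more, where 1 gene was left. The SR protein median, 0.02, was -0.12 at 20 CPM or more, -0.17 at 50 CPM or more and -0.07 with fractional genes left out. In these settings the genes tested or the fold limit differ by construction, except for FPKM, TPM and the pseudocount, where the cause was not tested. Of 119 values of the counts and of the overall median under an alternative, 104 kept within the limits set and 15 did not. Of single members, Prpf39 (0.08) was at -0.17 in TPM and -0.20 in FPKM, and Sf3b3 and Snrpb, both within 0.05 of 0, changed sign under another scaling or unit. No paired analysis was possible because each group has 1 library, and for the same reason no replicate could be left out.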

Other observations

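The ratio of estimated count to FPKM, with the library total, gives the length by which the authors' quantification divided in each library. This length need not be that of the full transcript. Among 58 members with enough reads, this length differed by at least 5% between the libraries in 4 (6.90%), namely Prpf39, Srsf4, Lsm6 and Prpf4, beside 13.4% of 7572 genes in all. For Prpf39 the length in dsNat10 was 1.26 times that in dsGFP. Its ratio was above 0 in counts and below 0 in TPM. For Srsf4 it was 1.06 times.

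Members were also sorted by the length of their longest coding transcript in GENCODE. This can differ from the length implied by count and FPKM. For Snrpd3 it is 3036 bases, beside implied lengths of 419 in dsNat10 and 417 in dsGFP. The 20 members under 1500 bases had a median log2 ratio of -0.12, the 22 from 1500 to under 3500 bases -0.20, and the 17 of 3500 bases or more 0.10. Over the tested genes with a coding transcript in GENCODE the same classes, of 1293, 3814 and 3381 genes, had medians of -0.05, -0.02 and 0.10.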
